A study of Homo sapiens with 2 samples.

Results

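The 10 genes described here encode the subunits of the transcription factor AP-1 and other factors, many of which cells induce within minutes of a growth signal. They were FOS, FOSB, FOSL1 and FOSL2 of the FOS family, JUN, JUNB and JUND of the JUN family, and EGR1, IER3 and MYC. Members were chosen by symbol, as every probe whose platform annotation names exactly 1 gene and that gene is on this list. That gave 11 probes of 31741, or 10 genes of 18336 that such probes name. FOSL2 had 2 probes and the other 9 genes had 1 each, so the difference of most members rests on a single probe.

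Expression was measured on 1-colour arrays with Cy5 in SAS, a cell line established from a squamous cell carcinoma of the human tongue. The study asked whether knock-down of the protein ATMIN affects cancer progression. The group called shATMIN (hairpin cells below) was transfected with hairpin plasmids against ATMIN, a zinc finger transcription factor of the DNA damage response, and kept in 10% serum with 3 µg/mL puromycin from 24 h after transfection, when resistant clones were selected. The control group is called neo; the labels repeat the same treatment text for it, and neither its construct nor its selection agent is stated in the labels. With 1 sample in each group, nothing checks a difference against replicates, and no p-value was computed. The labels also leave unsaid whether a sample was a single clone or several pooled clones, and when the cells had last been fed. The construct, the selection and the clone cannot be told apart from the hairpin in any difference below. As a check of the label, the targeted gene ATMIN went from 105 in control to 61.5 in hairpin cells in intensity on its brighter probe. That is a difference of -0.76 on the log2 scale. Of the genes bright enough to compare, as defined below, 5.26% were at least as low. The other ATMIN probe, too dim to compare, read 51.5 and 26.5, a difference of -0.93. The value of 61.5 was itself close to the intensity of 58.9 required for comparison, so the check rests on dim signal.

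AP-1 is a dimer of basic leucine zipper proteins. FOS family proteins do not form stable dimers with each other and pair with a JUN family protein, whereas JUN proteins can pair among themselves. In growing or stimulated cells ERK and related kinases activate the serum response factor SRF with its ELK partners, and FOS, EGR1 and other immediate early genes are then transcribed without new protein synthesis. FOSL1 and FOSL2 follow, and both they and MYC are held up by sustained ERK signalling. In squamous carcinoma cells AP-1 is best known for driving matrix proteases, cytokines and genes of keratinocyte differentiation.

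Promoter sequences are shown for EGR1, which had the widest difference, and for 1 lower and 1 level member each of the FOS and JUN families, a choice made after the values were seen. Sequences are from RefSeq (GRCh38.p14), which matched 7 of the 10 members in the promoter table; FOSL1, IER3 and MYC are named only. Each is the 150 bases before the annotated start, 5′ to 3′ on the gene's strand. Capitals mark the CArG box, which SRF binds, and TGACG, a part of the sites of CREB and some AP-1 dimers, each searched on both strands.
EGR1 (chr5:138465329-138465478, plus strand): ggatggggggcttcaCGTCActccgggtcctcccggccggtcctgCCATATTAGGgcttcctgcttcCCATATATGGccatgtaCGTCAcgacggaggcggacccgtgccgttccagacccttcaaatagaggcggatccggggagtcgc
FOS (chr14:75278678-75278827, plus strand): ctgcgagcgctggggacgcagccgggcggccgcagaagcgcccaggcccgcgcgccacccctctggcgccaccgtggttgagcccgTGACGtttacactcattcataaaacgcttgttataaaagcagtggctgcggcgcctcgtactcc
FOSB (chr19:45467846-45467995, plus strand): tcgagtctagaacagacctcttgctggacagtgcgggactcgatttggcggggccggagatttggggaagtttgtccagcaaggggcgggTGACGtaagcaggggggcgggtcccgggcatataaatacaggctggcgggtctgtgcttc
JUND (chr19:18281623-18281772, minus strand): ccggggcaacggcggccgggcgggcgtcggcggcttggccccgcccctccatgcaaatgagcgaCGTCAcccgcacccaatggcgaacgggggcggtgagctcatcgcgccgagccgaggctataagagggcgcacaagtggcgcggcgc
JUNB (chr19:12791336-12791485, plus strand): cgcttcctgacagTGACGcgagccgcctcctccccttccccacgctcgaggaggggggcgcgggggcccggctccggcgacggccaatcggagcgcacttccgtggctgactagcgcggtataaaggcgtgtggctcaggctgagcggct
EGR1 held 2 CArG boxes, with first bases 105 and 83 before the start, and 0.769% of 35116 promoters held at least 1 in this window. It also held 2 copies of CGTCA, which is TGACG on the other strand. FOS and FOSB each held 1 TGACG, with first bases 64 and 60 before the start. JUND held 1 CGTCA, with its first base at 86, and the only match of JUNB was 1 TGACG at 137. FOSL2 and JUN, whose sequences are not shown, also held 1 TGACG each. Among all promoters 15.4% held TGACG. The longer TGACNTCA was also searched; JUN held it as TGACATCA from 67 to 60 before the start, and 5.39% of promoters held it. The classical AP-1 site TGANTCA, found in 4.17% of promoters, the EGR site GCGNGGGCG, found in 6.43%, and the MYC site CACGTG, found in 4.57%, were searched as well and were not in the window of any of these 7 members. The matches are descriptions of these letters, and all 7 members held TGACG, whether lower or level. Bases further upstream than 150 were not searched, so a member without a CArG box here may hold one elsewhere.

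Most of the 10 genes read somewhat lower in the shATMIN sample, and none differed 2-fold. Values below are probe intensities, and differences are shATMIN minus neo control of log2(intensity + 1), a scale that understates differences of dim genes. Of the members, 8 were lower and 2 higher, with a median difference of -0.27. The same direction was common on the array, where 70.7% of 12421 compared genes were lower and the median was -0.16. A compared gene is one whose brightest probe has a mean level in the upper part of the array, at or above an intensity of 58.9, and all 11 member probes reached it. At the 2-fold rule of size 0 of the 10 members were called, where 1.8% of compared genes were, 1.34% lower and 0.459% higher. At 1.5-fold EGR1 alone was called, as lower, beside 12.2% of compared genes, and 0 members were called higher, beside 1.9%. Under each of the scalings described below EGR1 was no longer past 1.5-fold.

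**Figure D1:**
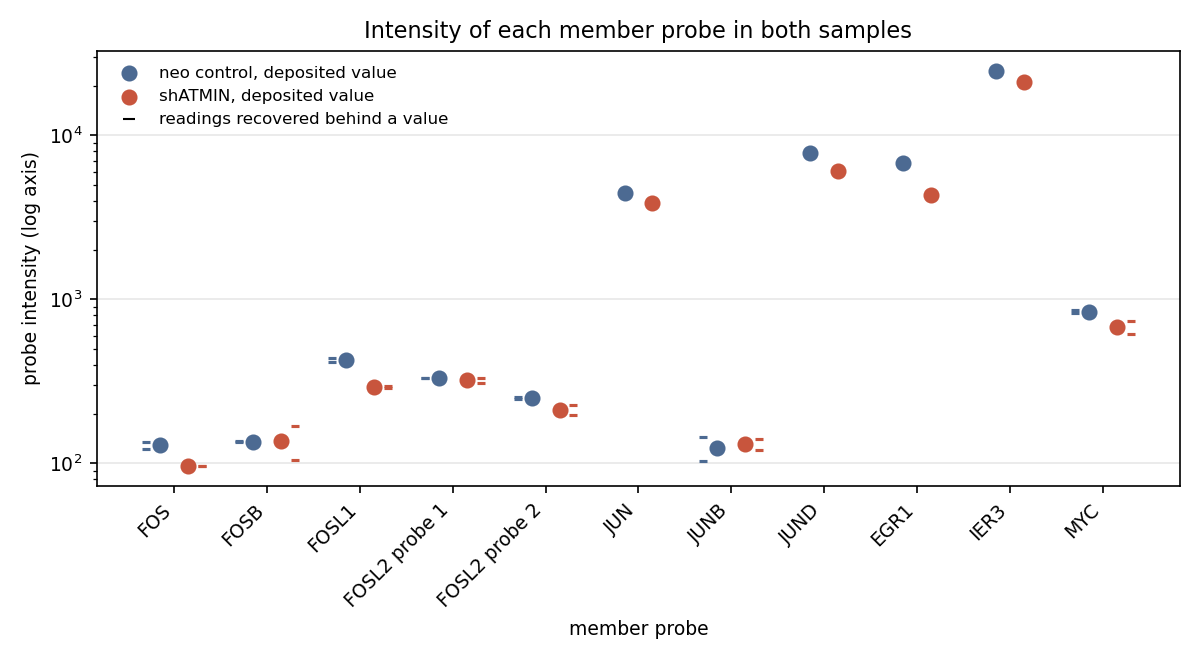
Probe intensity on a log axis for each of the 11 member probes, with the neo control in blue and the shATMIN sample in red, and short dashes for the readings recovered behind values under 1000. EGR1 and FOSL1 show the widest gaps between samples, while FOSB and JUNB read nearly the same in both and their readings overlap.

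Of the FOS family, FOSL1 and FOS were lower, and FOSB and FOSL2 were near level. FOSL1, which encodes FRA-1, the FOS protein most tied to invasive carcinoma cells, went from 429 in the control to 293 in the hairpin cells, a difference of -0.55 or 1.47-fold. FOS, the founding member whose transcript is made and lost within an hour of a stimulus, had intensities of 129 and 96.5 in the same order, a difference of -0.41. Both genes thus read lower in the hairpin cells, by less than 2-fold. FOSB, a close relative of FOS that is induced with it, read 136 and 137, a difference of 0.02. FOSL2, which encodes FRA-2, read 332 and 321 on its brighter probe, a difference of -0.05. On its dimmer probe the values were 250.5 and 213, a difference of -0.23, so the 2 FOSL2 probes shared a direction and differed in size by 0.18.

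For intensities under 1000 the pair of readings averaged into a deposited value could be recovered, which gives a measure of technical spread for 7 of the 11 probes. The labels list 2 arrays for each sample but do not say that these are the readings. The readings of FOSL1 were 442 and 416 in control cells, 298 and 287 in hairpin cells, with no overlap. Those of FOS were 123 and 135 against 96.2 and 96.8, again without overlap. The readings of FOSB were 136 and 135 in control cells but 105 and 169 in hairpin cells, so that its level value is the mean of a low and a high reading that lie 0.68 apart on the log2 scale. The brighter FOSL2 probe had readings of 334 and 330.3 against 334 and 307, which overlap. The other probe had 248 and 253 against 227 and 199, which do not.

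The JUN family, the obligate partners of FOS proteins, varied less. JUND, the member that most resting cells keep expressed, had 7819 in control against 6027 in hairpin cells, a difference of -0.38. JUN, which can activate its own gene, read 4465 and 3894, a difference of -0.20. JUNB, which often opposes JUN in growth control, read 125 and 131, a difference of 0.07. JUNB was thus the highest of the 10 members relative to the control, yet its readings were 145 and 104 in control cells, 141 and 121 in hairpin cells, and the latter lay inside the former. Across FOS and JUN families together 5 of 7 genes were lower, with a median of -0.20, close to the -0.16 of all compared genes.

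EGR1, a zinc finger factor induced through SRF, had the widest difference of the list. Its single probe went from 6766 in control cells to 4331 in hairpin cells, a difference of -0.64 or 1.56-fold. Of the 12421 compared genes 1157, or 9.31%, were at least as low. The gene with the next widest difference, FOSL1, was matched or passed by 14.1% of compared genes, and FOS by 23.5%. MYC, the growth regulator that pairs with MAX, read 840.5 and 677, a difference of -0.31. The readings of MYC were 822 and 859 in control cells, 738 and 616 in hairpin cells, which do not overlap. IER3, a stress-induced protein that affects apoptosis and ERK activity, read 24874 and 21231, a difference of -0.23, well short of the top of the scanner range.

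Of the 6 member genes whose brightest probe could be resolved into readings, 3 had both shATMIN readings below both neo control readings (FOS, FOSL1 and MYC) and 3 overlapped (FOSB, FOSL2 and JUNB). Among 7512 compared genes that could be resolved, 48.3% lay apart in the lower direction, 21.1% in the higher, and 30.6% overlapped. The members' share in the lower direction was thus near that of the array. In the higher direction it was 0, over only 6 genes. EGR1, JUN, JUND and IER3 were too bright for their readings to be recovered, and the technical spread of the widest difference is therefore not known. Over resolved compared genes the SD of a difference expected from the readings was 0.17, and where a gene had several compared probes the SD between them was 0.34. The differences of EGR1, FOSL1, FOS and JUND exceeded 0.34 and those of the other 6 members did not. That holds for the deposited scale: under the scalings described below JUND was within 0.34 throughout, and FOSL1 and FOS were within it on a common 75th percentile. This spread covers neither separate cultures nor separate clones.

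**Figure D2:**
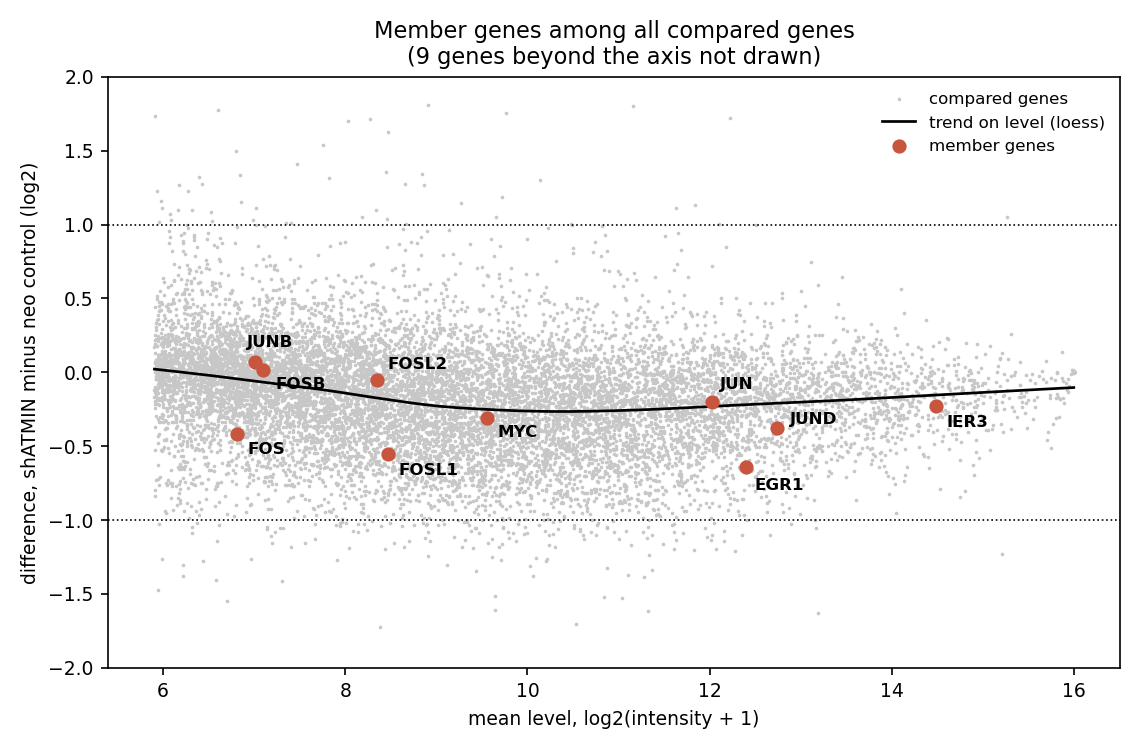
Difference (shATMIN minus neo control, log2) against mean level, log2(intensity + 1), for compared genes in grey and the 10 members in red, with the loess trend as a black line and dotted lines at 2-fold. The members sit between -0.64 and 0.07 inside the cloud of genes; EGR1, FOSL1 and FOS lie furthest below the trend.

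The shift of the array varied with level, so each member was also set beside compared genes within 0.5 of its own mean log2 level. At the level of EGR1 the median was -0.21 over 919 genes, 8.81% of them were at least as low as EGR1, and the 10th percentile was -0.60. At the level of FOS the median was -0.03 over 2090 genes and 11.5% were at least as low. For FOSL1 the median was -0.18 and the share 15.8%, and for JUND it was -0.19 and 27.2%. MYC at -0.31 lay by the median of its level, -0.27, and JUN at -0.20 by that of its own, -0.21. IER3 was a little below its level's median of -0.16, and FOSB, JUNB and the brighter FOSL2 probe were above theirs, which were -0.05, -0.04 and -0.17. Read against genes of like level, EGR1, FOS and FOSL1 were thus the low members, and MYC and JUN followed the array.

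Scaling changed the direction of several members. Once both samples were put on a common 75th percentile 5 of 10 members were lower, with a median of -0.04 where 41.2% of compared genes were lower. With quantile-normalized values, or with the level trend taken out, 6 were lower, with medians of -0.07 for both, where 49.5% and 49.7% of compared genes were lower. EGR1 kept a difference of -0.41, -0.42 and -0.42 under these scalings in turn, FOSL1 one of -0.32, -0.37 and -0.37, and FOS one of -0.18, -0.37 and -0.37. JUND stood between -0.17 and -0.14, and MYC between -0.08 and -0.05. JUN turned to between 0.03 and 0.04 and the brighter FOSL2 probe to between 0.12 and 0.18, while the dimmer FOSL2 probe was level on a common 75th percentile and at -0.10 and -0.11 under the others. IER3 was at 0.01 after scaling to the 75th percentile and at -0.08 under both of the others. FOSB and JUNB remained above 0, at up to 0.25 and 0.30.

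**Figure D3:**
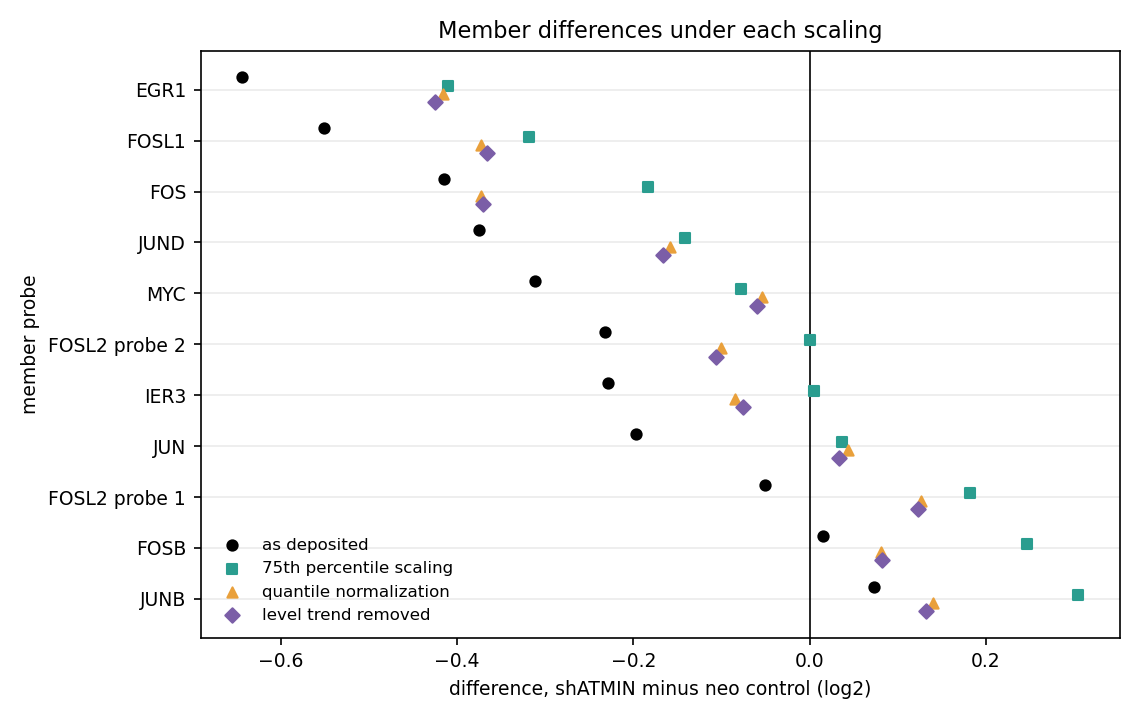
Difference (shATMIN minus neo control, log2) of each member probe as deposited and under 3 scalings, with probes ordered by the deposited difference. EGR1, FOSL1, FOS, JUND and MYC stay below 0 throughout, JUN and the brighter FOSL2 probe cross to the other side under all 3 scalings, IER3 reaches 0.01 under 1 of them, and the dimmer FOSL2 probe stays at or below 0.

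The factors and kinases that act upstream of the immediate early genes had a lower median than all compared genes. Of 22 listed, 18 were compared and 15 were lower, where 70.7% of all compared genes were lower. None differed 2-fold, and the median was -0.50 against -0.16 over all compared genes. With the mean or the median over a gene's compared probes 14 were lower, with list medians of -0.34 and -0.29. On their brightest probes CREB1 at 0.18, MRTFB at 0.13 and RPS6KA3 at 0.09 were the 3 higher genes. SRF, which binds the CArG boxes shown for EGR1, went from 2181 in control cells to 1172 in hairpin cells on its 1 probe, a difference of -0.90. RPS6KA1, which encodes the kinase RSK1 downstream of ERK, stood at -0.89, and at -0.80 on its second probe. MAP2K1, which encodes the ERK kinase MEK1, read 5322 and 3044, a difference of -0.81. RPS6KA4, which encodes the kinase MSK2, stood at -0.74. With the level trend taken out 15 of the 18 were still lower, where 49.7% of compared genes were. The median was then -0.35 against 0.002 over all compared genes, and SRF stood at -0.63. With scaling to the 75th percentile 12 of 18 were lower, where 41.2% of compared genes were. The median was then -0.27 against 0.07 over all compared genes. SRF and EGR1 were thus both lower under each of these scalings, and any link between them was not tested.

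Corepressors and relatives of EGR1 had 3 compared members of 6, all lower, with a median of -0.32, where 70.7% of all compared genes were lower. NAB2, a corepressor that EGR1 itself induces and that then limits EGR1 activity, read 1047 and 663, a difference of -0.66, and NAB1 stood at -0.32. EGR3 was level at -0.05, with readings of 224 and 248 against 191 and 266. EGR2, EGR4 and WT1 were below the level required for comparison. On a common 75th percentile, after quantile normalization and without the trend on level 2 of 3 were lower, with list medians of -0.09, -0.07 and -0.06. In the same order 41.2%, 49.5% and 49.7% of compared genes were lower. Without the trend NAB2 stood at -0.40, NAB1 at -0.06 and EGR3 at 0.08.

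Other AP-1 and related basic leucine zipper subunits were near level. Of 13 genes 8 were compared and 5 were lower, with a median of -0.04, where 70.7% of all compared genes were lower. On a common 75th percentile, after quantile normalization and without the level trend 3 of the 8 were lower, with medians of 0.19, 0.02 and 0.02. Over all compared genes 41.2%, 49.5% and 49.7% were lower in turn. ATF2, a partner of JUN, stood at -0.93 on its brighter probe, which read 1023 and 536, but at 0.12 on its other probe. MAFK stood at -0.46 and 0.22 on its probes. MAFF stood at -0.33, with readings of 82.2 and 84.8 against 71.1 and 60.9. ATF3, a stress-induced member of the family, read 341 and 363, a difference of 0.09. The disagreement between ATF2 and MAFK probes was wider than the difference of any member described here.

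The wider list of immediate early and rapid response genes, which shares ATF3 and the EGR genes with the lists above, followed the array. Of 35 genes 31 were compared, 21 were lower and 10 higher, where 70.7% of all compared genes were lower. None differed 2-fold, and the median was -0.17. On a common 75th percentile 14 were lower and the median was 0.06, where 41.2% of compared genes were lower. After quantile normalization or without the level trend 17 were lower, with medians of -0.02 and -0.05. Of all compared genes 49.5% and 49.7% were lower under these 2 scalings in turn. ZFP36, which encodes tristetraprolin, a protein that speeds decay of FOS and cytokine transcripts, read 290 and 155, a difference of -0.90, with readings of 283 and 297 against 155 in both. SIK1 stood at -0.79 and the anti-apoptotic gene MCL1 at -0.78, or -0.53 and -0.56 without the level trend. PTGS2, which encodes the inducible cyclooxygenase, went the other way and read 487 and 890.4, a difference of 0.87. Both with the level trend taken out and on a common 75th percentile it passed the 2-fold rule, at 1.11 and 1.10. The list thus held genes that stood apart from the control in both directions.

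**Figure D4:**
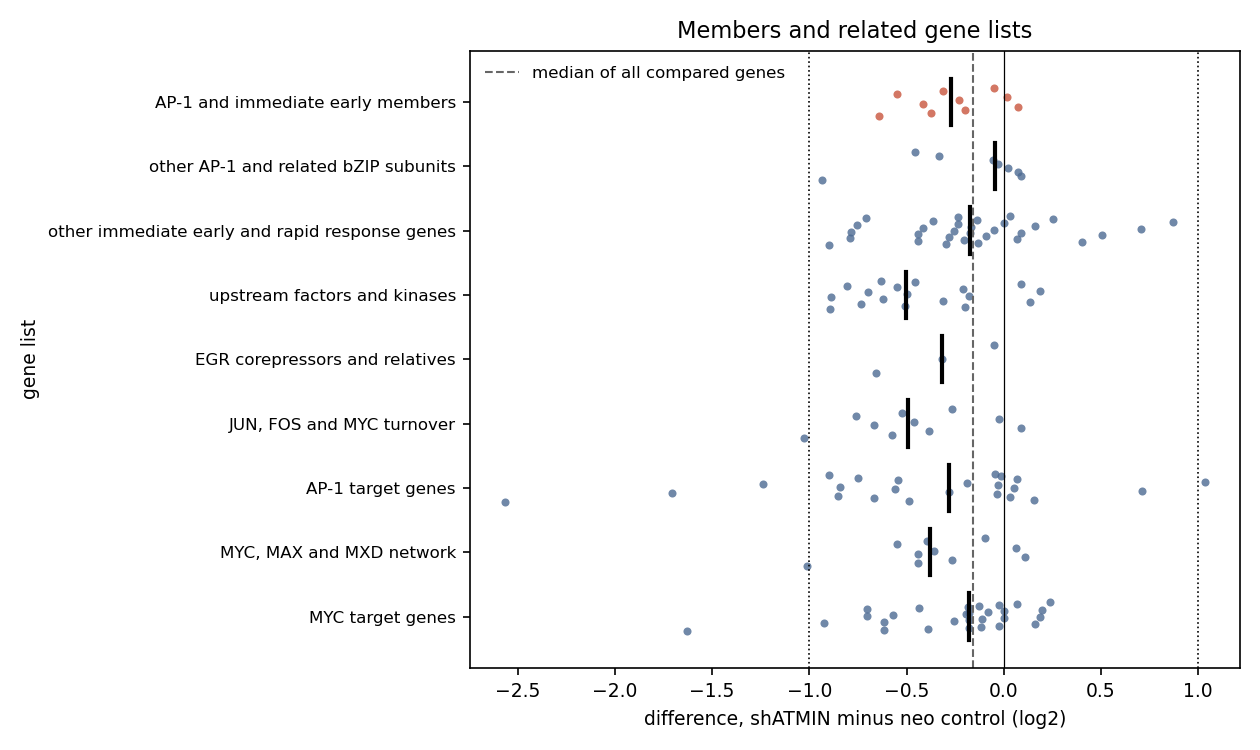
Difference (shATMIN minus neo control, log2) of each compared gene in the 10 members (red) and 8 related lists (blue), with black bars for medians, a dashed line for the median of all compared genes and dotted lines at 2-fold. Medians run from -0.50 for the upstream factors and kinases to -0.04 for the other AP-1 subunits, and the members' median is -0.27.

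Genes that AP-1 is known to activate were spread widely. Of 30 listed, 23 were compared and 17 were lower, 3 of them 2-fold, and 1 was 2-fold higher, with a median of -0.28. Over all compared genes 70.7% were lower, 1.34% were 2-fold lower and 0.459% 2-fold higher. The cytokine gene IL11 read 696 and 117, a difference of -2.56, with readings of 739 and 654 against 125 and 109. The protease gene MMP3, a classical AP-1 target, read 3951 and 1677, a difference of -1.24 that was -0.98 without the trend on level. The other compared proteases of the list, MMP1, MMP9, MMP10 and PLAU, were level as deposited, at 0.07, -0.03, -0.02 and 0.05. HMGA2 stood at -1.70 on its brighter probe, while the other read 401 and 378, a difference of -0.08. LOR, which encodes the cornified envelope protein loricrin, stood at 1.03, on neo control readings of 2.00 and 90.8 and shATMIN readings of 108 and 83.8, so its size is not settled. IL11 and MMP3 differed by more than any of the AP-1 subunit genes. After removal of the level trend 13 of the 23 were lower, with a median of -0.04, where 49.7% of compared genes were lower.

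The partners and competitors of MYC at its sites had 10 compared genes of 12. Of these 8 were lower, with a median of -0.38, where 70.7% of all compared genes were lower. Under the scalings 7 were lower, with medians of -0.15 on a common 75th percentile and after quantile normalization and -0.14 without the level trend. In the same order 41.2%, 49.5% and 49.7% of compared genes were lower. MXD1, which encodes the MAX partner MAD1 that opposes MYC, read 916 and 454, a difference of -1.01, with readings of 907 and 926 against 448 and 461. MGA stood at -0.55, and ZBTB17, which encodes the MYC partner MIZ-1, and MLXIP both stood at -0.44. Of the known MYC target genes 28 of 29 were compared and 23 were lower, with a median of -0.18, near that of the array. Among the 23, NPM1 and ENO1 read above 65508 in both samples, at the top of the deposited range, so no direction can be read for either. The cyclin gene CCND2 read 16449 and 5312, a difference of -1.63. CAD, which encodes the enzyme that starts pyrimidine synthesis, stood at -0.92, the ribosome assembly gene PES1 at -0.71, and CDC25A at -0.70 on 1 probe and -0.19 on another. After removal of the level trend 12 of the 28 targets were lower, with a median of 0.04, so the direction of this list turned with the scaling.

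Genes placed together for the turnover of JUN, FOS and MYC proteins had 10 compared of 12. Of these 9 were lower, with a median of -0.49, where 70.7% of all compared genes were lower. Without the trend on level 8 were lower, with a median of -0.37, where 49.7% of compared genes were lower. ITCH, a ubiquitin ligase that targets JUN proteins, read 421 and 206, a difference of -1.03, with readings of 420 and 423 against 209 and 203. FBXW7, the substrate receptor that marks phosphorylated MYC and JUN for degradation, was lower on all 3 of its probes, at -0.76, -0.53 and -0.47. HUWE1, another ligase that acts on MYC, stood at -0.67 and -0.24 on its probes, and UBE2O at -0.58. The tie of UBE2O and TRIM7, both on this list, to these proteins is less firm. Protein levels were not measured, so whether the proteins of the members followed their transcripts was not tested.

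The median intensity of all probes was 109 and 106 and the upper quartile 629 and 535; precision is limited by how few arrays there were. Of 11 squamous epithelial markers 10 were compared, so genes that define the labelled cell type were detected in both samples, 5 of them higher and 5 lower. KRT6A at 1.00, KRT14 at 0.99 and TP63 at -1.19 differed by more than any of the 10 members, in opposed directions. Summed over fibroblast markers the intensity was 2114 for control and 2054 for hairpin cells, with 5 of 12 compared. Single fibroblast markers ran from FAP at 1030 and 983 to COL3A1 at 2.50 and 2.00. Leukocyte markers summed to 4373 and 3581, with CD14 the brightest at 2858 and 2602, and PTPRC at 13.5 and 14.0. Of 10 leukocyte markers 5 were compared and 4 were lower, with a median of -0.64, HCLS1 at -1.16, CORO1A at -0.73 and CD68 at -0.64. Endothelial markers summed to 748 and 731, with 5 of 8 compared, 2 lower and 3 higher, among them CDH5 at -0.60 and TEK at 0.40. The part of these markers in the differences above was not tested. In such bulk samples fewer cells that express a gene and less RNA per cell cannot be told apart.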

How the data were processed

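Total RNA of 1 neo control and 1 shATMIN sample was amplified and labelled with Cy5, per the labels' protocols, which list 2 arrays per sample. The authors deposited 1 linear intensity per probe and sample, between -1.00 and 65510 for the control and between -2.00 and 65511 for the hairpin cells. Values below 0 show that background was subtracted. The labels state no scanner, background method, rule for combining arrays or normalization.

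Genes were assigned by the platform annotation with symbols brought up to date through RefSeq (GRCh38.p14): 24740 probes named 1 gene, 977 several and 6024 none, and no probe naming several genes named a member. Negative values were taken as 0, and log2(intensity + 1) was used. A gene was represented by its brightest probe and compared at or above the 40th percentile of mean level. No test was possible at 1 sample per group; calls use a 2-fold rule of size. The members and all lists were chosen with earlier results of these data known. Named genes were all member probes, ATMIN and up to 4 compared genes with the greatest absolute difference in each of 8 lists, with their other compared probes. Marker genes (COL3A1, PTPRC, KRT6A and others), TRIM7, CREB1, MRTFB, RPS6KA3, MMP1, MMP9, MMP10, PLAU, NPM1 and ENO1 were named after their values were seen.

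Under 1000 the intensities equal the mean of 2 whole numbers multiplied by factors near 1 (1.0022 and 0.9978 for the control, 1.0019 and 0.9981 for the hairpin cells). A value counted as resolved within 3 steps of single-precision rounding. Taking the nearest sum alone, 99.9% of values in both samples were resolved, and a wrong step resolved 6.63% and 7.63%. The calculations were tested on simulated data. Alternatives covered scaling, the dim filter, several probes per gene, the pseudocount, naming, bright probes and the size rule. Loess (span 0.3) came from statsmodels 0.14.6; other steps ran in Python 3.11.15 with NumPy 2.4.6, pandas 2.3.3 and matplotlib 3.10.9.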

Additional observations from a re-analysis of the deposited data

How the results depend on the processing

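No paired analysis was possible because the groups share only 1 replicate number and no test was made. The members' median of -0.27 was -0.036 with scaling to the 75th percentile, -0.069 after quantile normalization and -0.068 after removal of the level trend, and 5 of 10 members were lower with the first of these. At 1.5-fold 1 member was called in place of 0. All compared genes past 2-fold numbered 223, 166 lower and 57 higher. The counts lower and higher were 36 and 122 with scaling to the 75th percentile, 47 and 96 (143 in all) after quantile normalization, 47 and 94 (141 in all) without the level trend, and 53 and 106 with the median subtracted. Without a dim filter 365 genes passed, 154 of them higher, and with a filter at the 60th percentile 29 were higher. With a pseudocount of 50 there were 126, 97 lower and 29 higher. At 1.5-fold there were 1753, 1517 lower and 236 higher. The scalings add or subtract values common to genes of one level, which moves these counts by construction. The members' results stayed within 1.5 times, or within the SD of 0.17 from the readings, under the alternatives not named here. Over 12 alternatives EGR1 ran from -0.64 to -0.41, FOSL1 from -0.55 to -0.32, JUND from -0.38 to -0.14 and MYC from -0.31 to -0.05. FOS, in the 11 alternatives that kept it, ran from -0.41 to -0.18. FOSL2 kept its sign in 8 of 12 alternatives, JUN in 9 and IER3 in 11. FOS, FOSB and JUNB were not compared with the dim filter at the 60th percentile. Of 690 other values under the alternatives, 147 moved past these limits. Among values at least 2-fold in size as deposited, which include no member, 0 changed sign. Sign changes of smaller values are not in that count. The technical spread of the bright members could not be judged, since their readings could not be recovered above 1000.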
